A study of Mus musculus with 9 samples.

Results

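Acsl1, Acot2 and Aldh3a2 are enzymes that handle fatty acids in their activated or aldehyde form, and their transcript levels were described in the livers of mice under 2 forms of dietary restriction. These 3 genes, among the 5608 listed, were chosen by symbol with their levels in these libraries already known, so their differences between groups are given as a description and carry no p-value. The mice were wild-type C57BL/6 J, and their age and sex are not given in the sources used here. FED mice had free access to the standard diet, IF (intermittent fasting) mice had food withheld for 24 h, 2 times in the week, and FMD mice were on a fasting-mimicking diet, a low-calorie feed, for 3 days. Liver samples of 3 mice per group were sequenced as polyadenylated RNA, and FMD replicates are numbered 1, 2 and 4.

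Acsl1 is a long-chain acyl-CoA synthetase, which joins a fatty acid to coenzyme A so that it can be oxidised or built into lipids. Acot2 is a mitochondrial acyl-CoA thioesterase, which does the reverse and frees the fatty acid from coenzyme A. Aldh3a2, fatty aldehyde dehydrogenase, oxidises long-chain aldehydes to fatty acids, and its loss in humans causes Sjögren-Larsson syndrome. All 3 genes belong to the textbook targets of PPARA, the nuclear receptor that drives fatty acid oxidation in the fasted liver.

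Levels are in TPM (transcript abundance normalised for transcript length and library total), so levels of different genes can be set side by side. The listed genes made up 26.3% to 43.0% of each library's TPM, and as a whole they were higher under both diets, with a median log2 fold change over 4665 genes of 0.24 in IF and 0.48 in FMD compared to the fed group, and 0.24 between FMD and IF. Scaled values, for which a library's median ratio to the geometric mean over libraries was set to 1, take this shift out. FMD replicate 1 stood apart, with a mean distance to its own group of 38.4 on the log2 scale over all genes tested, against 14.2 to 16.7 in FED, 14.8 to 15.1 in IF and 30.0 and 33.6 in the other two FMD libraries. It also held 64.0 TPM of the macrophage gene Cd68, against 3.14 to 12.2 TPM in the other libraries. The adipocyte gene Fabp4 was at 80.3 TPM in it, against 5.81 to 30.5. The fibroblast gene Dcn was at 213 TPM, against 64.1 to 156. The other listed fibroblast genes did not set FMD replicate 1 apart. Its Col1a1 level was below that of FED replicate 2, and its Pdgfrb level was only just above that of IF replicate 2. Of the marker lists, 1 of 11 macrophage, 1 of 9 endothelial, 3 of 10 stellate, 1 of 6 cholangiocyte and 1 of 6 adipocyte genes were listed, none of them at 0 in every library, and none of the lymphocyte or erythroid lists. The summed TPM of the 3 stellate genes was 66.6 to 93.8 in FED livers, 122 to 160 under IF and 107 to 217 under FMD, and the endothelial gene Oit3 lay at 6.58 to 9.28, 6.35 to 8.02 and 8.85 to 17.2 TPM. Nearly all of the stellate sum was Dcn, with means of 77.5, 141 and 150 TPM in FED, IF and FMD. Means in the same order were 1.15, 0.94 and 0.91 TPM for Col1a1 and 1.67, 1.96 and 1.63 TPM for Pdgfrb, so the rise of the sum under both diets rested on Dcn. Of 12 hepatocyte markers only Ass1, a urea cycle enzyme, was listed, at 2335 to 5153 TPM. The part of other cell types in the values below was not tested, and in liver tissue fewer cells of a type and less RNA per cell cannot be told apart.

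The sequences before the gene starts are shown because all 3 genes had higher means under both diets and share a regulator in the textbooks. They are the 250 bases upstream of each start from RefSeq (GRCm38.p6), 5′ to 3′ on the gene's strand. Capitals mark matches, on either strand, to a CCAAT box (CCAAT, or its complement), a GC box (GGGCGG) or an E-box (CACGTG). The Acot2 window (chr12:83987611-83987860, plus strand) holds no annotated exon. Acsl1 has 2 windows on the plus strand, the upstream one at chr8:46470787-46471036 outside any annotated gene and the downstream one at chr8:46490716-46490965 in an intron of Acsl1. The Aldh3a2 window (chr11:61267187-61267436, minus strand) overlaps an annotated exon of Aldh3a2 and no coding sequence.
Acot2: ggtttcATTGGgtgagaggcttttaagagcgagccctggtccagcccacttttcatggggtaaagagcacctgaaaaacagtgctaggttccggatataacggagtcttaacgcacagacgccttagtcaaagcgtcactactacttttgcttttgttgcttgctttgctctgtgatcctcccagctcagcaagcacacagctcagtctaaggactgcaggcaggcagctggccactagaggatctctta
Acsl1, upstream start: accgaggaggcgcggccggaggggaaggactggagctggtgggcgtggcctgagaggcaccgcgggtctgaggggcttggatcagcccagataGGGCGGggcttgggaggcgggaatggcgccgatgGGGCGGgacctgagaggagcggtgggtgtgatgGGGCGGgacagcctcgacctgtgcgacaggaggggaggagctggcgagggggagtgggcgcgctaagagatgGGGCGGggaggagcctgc
Acsl1, downstream start: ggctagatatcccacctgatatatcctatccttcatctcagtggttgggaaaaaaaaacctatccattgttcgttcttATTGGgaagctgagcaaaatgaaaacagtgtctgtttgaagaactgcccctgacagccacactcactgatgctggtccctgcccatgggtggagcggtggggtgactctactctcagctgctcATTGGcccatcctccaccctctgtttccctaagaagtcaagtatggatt
Aldh3a2: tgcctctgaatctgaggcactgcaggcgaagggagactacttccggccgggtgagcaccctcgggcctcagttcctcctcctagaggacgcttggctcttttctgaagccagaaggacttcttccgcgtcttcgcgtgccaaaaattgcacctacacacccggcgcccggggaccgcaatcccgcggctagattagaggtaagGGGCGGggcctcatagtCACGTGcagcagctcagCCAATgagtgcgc

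The upstream Acsl1 window was the most GC-rich, at 72.0% against a median of 52.4% over 32851 windows of the same length, and held 4 GC boxes, a motif found in 32.7% of those windows. Acot2 (50.4% GC) held 1 CCAAT box and the downstream Acsl1 window (48.4% GC) held 2, a motif found in 33.8% of windows. Aldh3a2 (61.2% GC) held 1 of each, its E-box lying 25 to 30 bases before the start, and 6.02% of all windows held an E-box. The other motifs were searched on both strands and matched none of the 4 windows. The nuclear receptor half-site AGGTCA was found in 14.0% of all windows. Its direct repeat 1, 2 such half-sites in a row with any 1 base between them, is the form of site that PPARA binds and was found in 0.0335%, each match also holding the half-site. The glucocorticoid response element, AGAACA followed after any 3 bases by its reverse complement, was found in 0.00913%. The cAMP response element TGACGTCA was found in 1.55% and the TATA box TATAAA in 12.4%. The nearest stretch to the direct repeat had 3 mismatches in Acot2 and Aldh3a2 and 5 in both Acsl1 windows. These matches describe letters in a short window and do not show where a factor binds.

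Acsl1 (NCBI gene 14081) was the most abundant of the 3 genes in every library. In FED livers it was at 205, 359 and 277 TPM in replicates 1, 2 and 3, in IF livers at 830, 745 and 874 TPM, and in FMD livers at 332, 675 and 618 TPM in replicates 1, 2 and 4. Every IF library was above every FED library and every FMD library was below every IF library, while FMD replicate 1 fell within the FED range. The FED mean was 280 ± 77.3 TPM, the FMD mean 542 ± 184 TPM and the IF mean 816 ± 65.6 TPM (SD, n = 3), from lowest to highest. IF over FED, the ratio of means was 2.91, and FMD stood at 1.93 times the FED mean and 0.664 times the IF mean. Leaving out FMD replicate 1, those FMD ratios became 2.31 and 0.792. Acsl1 ranked between 61 and 276 from the top of the 5608 genes in all 9 libraries.

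Acot2 (NCBI gene 171210) was lowest in FED livers, higher in IF and highest in FMD livers. FED livers held 0.53, 1.56 and 0.62 TPM, IF livers 15.5, 11.0 and 13.9 TPM, and FMD livers 88.4, 45.3 and 29.4 TPM in replicates 1, 2 and 4. No library of any group reached the range of another group. The FED mean was 0.903 ± 0.570 TPM, the IF mean 13.4 ± 2.29 TPM and the FMD mean 54.4 ± 30.5 TPM (SD, n = 3). The IF mean was 14.9 times the FED mean, and the FMD mean was 60.2 times the FED mean and 4.04 times the IF mean. Without FMD replicate 1, which held the most Acot2, the FMD mean was 41.3 and 2.78 times those of FED and IF. In rank from the top, Acot2 went from 4267 to 4779 in FED livers to 1918 to 2306 in IF and 702 to 1330 in FMD. The number of reads behind its low FED level is unknown. Of its transcript's 2097 windows of 100 bases, 359 (17.1%) were identical in Acot1, the cytosolic thioesterase encoded next to it, which was not analysed here, so reads from the shared stretches may be split or exchanged between both genes. The same search found 0 shared windows for Acsl1 and for Aldh3a2.

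Aldh3a2 (NCBI gene 11671) was higher under both diets, at levels that overlapped between them. FED livers held 55.2, 90.0 and 84.8 TPM, IF livers 326, 233 and 286 TPM, and FMD livers 236, 371 and 343 TPM in replicates 1, 2 and 4. All 6 diet libraries were above all FED libraries, and the lowest FMD value lay between the IF values. The FED mean was 76.7 ± 18.7 TPM, the IF mean 282 ± 46.7 TPM and the FMD mean 317 ± 71.1 TPM (SD, n = 3). The IF mean was 3.68 times the FED mean, and the FMD mean was 4.13 times the FED mean and 1.12 times the IF mean. The neighbours IF and FMD in this order did not differ beyond their spread.

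**Figure D1:**
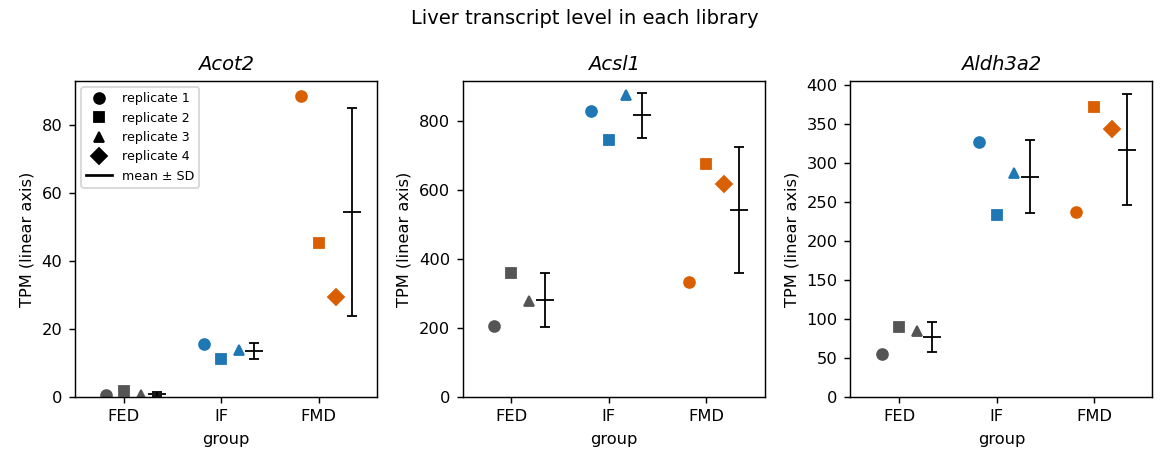
TPM of Acsl1, Acot2 and Aldh3a2 in each liver library by group (FED, IF, FMD), each panel with its own axis from 0, with points for libraries and the bar and whiskers for the mean and SD of 3 libraries. Acot2 lies at 0.53 to 1.56 TPM in FED and 29.4 to 88.4 TPM in FMD, Acsl1 is highest in IF, and Aldh3a2 overlaps between IF and FMD.

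Replicates did not deviate the same way in every group. FED replicate 1 was the lowest and FED replicate 2 the highest of its group for all 3 genes, and IF replicate 2 was the lowest of its group for all 3. In FMD, replicate 1 was the highest for Acot2 and the lowest for Acsl1 and Aldh3a2. Over the 9 libraries the correlation of log2(TPM + 1) was 0.57 between Acot2 and Acsl1, 0.88 between Acot2 and Aldh3a2 and 0.87 between Acsl1 and Aldh3a2 (Pearson's r). Without FMD replicate 1 the values were 0.87, 0.97 and 0.94, and on scaled values of all libraries they were 0.30, 0.80 and 0.79. These correlations share the difference between the groups and are a description.

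On the log2(TPM + 1) scale, which understates the change of a gene as low as Acot2, the fitted fold change of Acot2 was 2.95 in IF and 4.76 in FMD against FED, and 1.81 in FMD against IF, each with an SE of 0.34. These were the 3rd, 1st and 14th highest of the 4665 genes. For Acsl1 the values were 1.57, 0.92 and -0.65 (SE 0.26), and the FMD vs IF value was the 34th from the lowest. For Aldh3a2 they were 1.88, 2.04 and 0.15 (SE 0.22). All 3 genes were higher in every IF library than in every FED library, as were 53.8% of all genes tested. For FMD against FED this held for Acot2 and Aldh3a2, beside 68.0% of all genes. In FMD vs IF, every library was higher for Acot2, beside 33.6% of all genes, and lower for Acsl1, beside 3.04%. The order FED, IF, FMD with no overlap, seen for Acot2, was found in 16.8% of the genes, and every IF library above FED with every FMD library below IF, seen for Acsl1, in 1.76%. The groups were known when these genes were chosen, so nothing is read from these shares.

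On scaled values the log2 fold changes were 2.82, 4.35 and 1.53 for Acot2, 1.29, 0.36 and -0.93 for Acsl1, and 1.61, 1.48 and -0.12 for Aldh3a2, in the same order of comparisons. The sign of Aldh3a2 in FMD vs IF thus turned with the scaling, and Acsl1 in FMD stood 0.36 above FED with an SE of 0.33. Both rested on FMD replicate 1: scaled values without it gave 0.80 (SE 0.19) for Acsl1 against FED and 0.20 (SE 0.20) for Aldh3a2 against IF. Without FMD replicate 1, the deposited values gave 1.24 for Acsl1 in FMD vs FED and -0.33 in FMD vs IF, and 4.34 and 1.39 for Acot2.

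**Figure D2:**
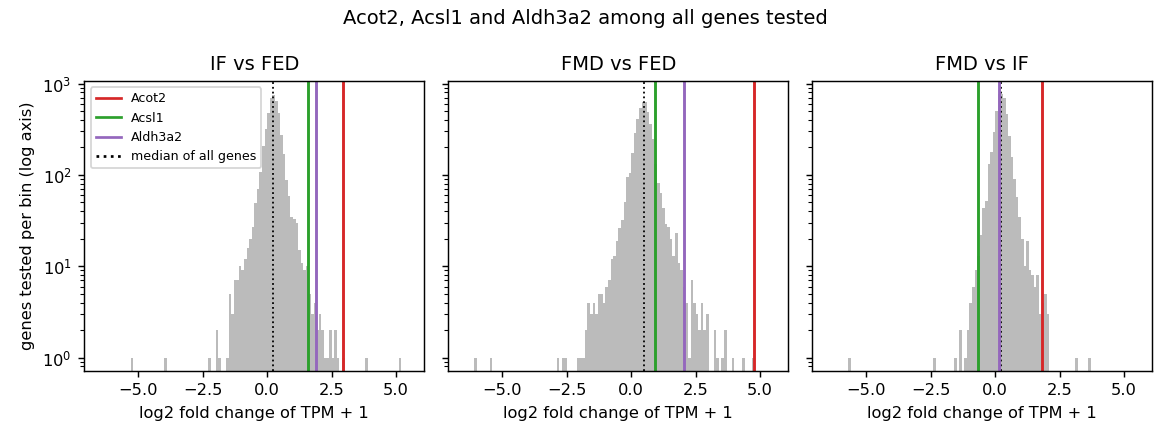
Number of the 4665 genes tested per bin of log2 fold change of TPM + 1 (grey bars, log axis), a panel for each pair of groups. Vertical lines mark Acot2, Acsl1 and Aldh3a2, and a dotted line marks the median of all genes. Acot2 lies at 2.95, 4.76 and 1.81, while Acsl1 lies at 1.57 and 0.92 against FED and at -0.65 against IF.

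Ratios within a library do not depend on how libraries are scaled to each other. Per 100 TPM of Acsl1, FED livers held 0.224 to 0.434 TPM of Acot2, IF livers 1.47 to 1.87 and FMD livers 4.76 to 26.6. Per 100 TPM of Aldh3a2 there were 0.731 to 1.73, 4.71 to 4.84 and 8.57 to 37.5 TPM of Acot2. Aldh3a2 itself stood at 25.0 to 30.6 TPM per 100 TPM of Acsl1 in FED, 31.3 to 39.3 in IF and 54.9 to 71.1 in FMD. In each of these ratios the 3 groups did not overlap, in the order FED, IF, FMD. The ratio of Acot2 to Acsl1 follows from the other ratios, so these are not separate observations. The genes were chosen with their levels known and other gene pairs were not examined, so nothing is read from this order. FMD replicate 1 had the highest value of all 9 libraries in each ratio, and FMD replicates 2 and 4 also lay above every IF library.

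**Figure D3:**
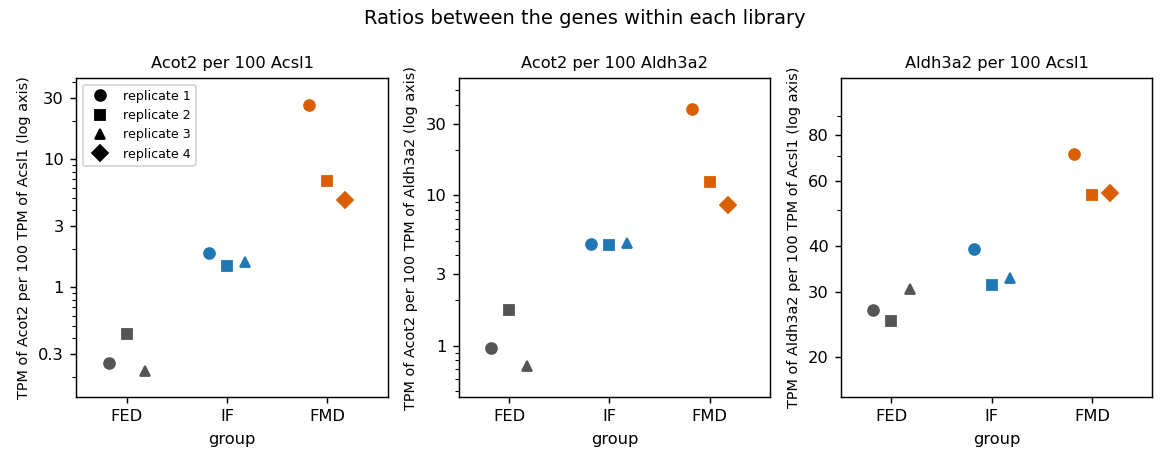
Ratios of TPM within each library, on log axes, by group, with the replicate shown by the marker. Acot2 per 100 Acsl1, Acot2 per 100 Aldh3a2 and Aldh3a2 per 100 Acsl1 step up from FED to IF to FMD with no overlap, and FMD replicate 1 is the highest library in all of them.

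Each gene was then set beside its own enzyme family. Related genes were called at a limma adjusted p under 0.05 (Benjamini-Hochberg, over the 4665 genes) with a fold change over 1.5 on the log scale. At these limits 10.3% of all genes were called higher and 1.59% lower in IF vs FED, 35.5% higher and 1.59% lower for FMD against FED, and 4.67% higher and 0.472% lower for FMD against IF. After scaling, 3.71% and 3.43%, 5.47% and 5.72%, and 1.07% and 1.09% were called.

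Of 15 other acyl-CoA thioesterases, 4 were listed and tested. Acot8, the peroxisomal thioesterase, rose from 16.0 to 17.6 TPM in FED livers to 34.2 to 37.9 TPM under IF (log2 fold change 1.03, adjusted p = 0.000206) and to 35.7 to 38.5 TPM in FMD (1.09, adjusted p = 4.64e-05), higher in every diet library. Acot8 was the single thioesterase called in IF vs FED, with and without scaling. In FMD vs FED, Acot9, a mitochondrial thioesterase, and Acot13, a small thioesterase of mitochondria and cytosol, were called as well. Acot9 was at 1.87 to 2.03 TPM in FED and at 13.1, 4.47 and 2.57 TPM in FMD replicates 1, 2 and 4 (1.14, adjusted p = 0.0222), and leaving out any FED library ended the call, with adjusted p-values of 0.0513 to 0.0553. Acot13 went from 71.1 to 85.3 TPM to 106 to 134 TPM (0.59, adjusted p = 0.00401), at the fold limit, and leaving out FED replicate 1, FED replicate 2 or FMD replicate 4 took it under that limit. After scaling, 0 of the 4 were called in FMD vs FED by limma, with 2 at an unadjusted p under 0.05. Acot2 made up 0.501% to 1.46% of the summed TPM of these 5 genes in FED, 6.26% to 9.14% in IF and 13.3% to 33.2% in FMD livers. In FED livers Acot13 was the most abundant of them.

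Of 23 other acyl-CoA synthetases and fatty acid transport proteins with synthetase activity, 4 were listed and 2 tested, and they moved in opposite directions. Slc27a1, a fatty acid transport protein, rose from 1.87 to 2.18 TPM in FED livers to 12.4 to 13.7 TPM under IF (log2 fold change 2.20, adjusted p = 0.00246) and to 9.65, 32.6 and 9.14 TPM in FMD replicates 1, 2 and 4 (2.34, adjusted p = 0.000689). Acss2, which makes acetyl-CoA from acetate for lipid synthesis, fell from 109 to 170 TPM to 53.2 to 64.4 TPM in IF (-1.26, adjusted p = 0.00411) and 31.5 to 59.1 TPM in FMD (-1.68, adjusted p = 0.000359). Neither diet group overlapped FED for either gene, and the calls held after scaling. Acsl1 made up 54.3% to 76.4% of the summed TPM of the listed synthetases in FED, 90.6% to 93.0% in IF and 88.0% to 91.7% in FMD, and these shares overlapped between both diets while its level was lower in every FMD library than in IF.

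Of 19 other aldehyde dehydrogenases, 4 were listed and 3 tested. Aldh9a1, which acts in carnitine synthesis, held 101 to 120 TPM in FED livers, 157 to 183 TPM under IF (log2 fold change 0.60, adjusted p = 0.0243) and 144 to 230 TPM under FMD (0.69, adjusted p = 0.00506). The IF call was lost on leaving out any 1 FED or IF library and the FMD call without FMD replicate 2, and both calls were lost after scaling (adjusted p = 0.261 and 0.634). Aldh4a1, the mitochondrial dehydrogenase of proline breakdown, was at 181 to 211 TPM in FED and at 96.2, 198 and 151 TPM in FMD replicates 1, 2 and 4 (-0.44, adjusted p = 0.0864), and was called lower on scaled values (-0.99, adjusted p = 0.0315). Aldh3a2 made up 13.4% to 21.1% of the summed TPM of the listed family in FED, 34.7% to 42.9% in IF and 42.0% to 49.6% in FMD. In FED livers both Aldh4a1 and Aldh9a1 were above Aldh3a2 in every library, and in IF livers Aldh3a2 was above both in every library.

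The wider set of enzymes around these 3 genes was also read by list. Of 10 genes of peroxisomal acyl-CoA oxidation tested, 7 were called higher in IF and 8 in FMD, none lower, with medians of 0.89 and 1.05 beside 0.24 and 0.48 for all genes. After scaling, 5 were higher in each and 1, Pecr, was lower in FMD. Without scaling, Pecr in FMD vs FED fell just short of the fold limit for a lower call (-0.58, adjusted p = 0.0160 by limma). Every FMD library was below every FED library for Pecr, at 123 to 208 TPM against 238 to 272 TPM. Crat, carnitine acetyltransferase, rose from 6.16 to 7.23 TPM in FED livers to 50.9 to 53.3 TPM under IF (log2 fold change 2.79, adjusted p = 3.33e-07) and 50.2 to 59.2 TPM in FMD (2.83, adjusted p = 2.85e-07), higher in all 6 diet libraries. Ech1 (1.43 in IF and 1.75 in FMD) and Eci2 (1.38 and 1.56), both of which rearrange double bonds of acyl-CoAs, were called in both comparisons with and without scaling. Pecr, a peroxisomal enoyl-CoA reductase that works in chain elongation, was lower in FMD than in IF (-0.74, adjusted p = 0.0373), at 123 to 208 TPM against 256 to 304 TPM, a call not held after scaling (adjusted p = 0.0538) or without FMD replicate 1.

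Of 11 genes of the carnitine shuttle and mitochondrial beta-oxidation, 9 were called higher in IF and 9 in FMD, with medians of 1.13 and 1.23, and 8 and 7 after scaling. Acadl, long-chain acyl-CoA dehydrogenase, and Hadha, of the trifunctional protein, were among them, with log2 fold changes of 1.34 and 1.15 in IF and 1.86 and 1.48 in FMD. All 5 PPARA targets tested were called higher under both diets, 4 of 5 after scaling, including Cpt1a (1.61 and 2.08), the entry step of the carnitine shuttle, and Angptl4 (1.11 and 1.87), an inhibitor of lipoprotein lipase. Some genes stand in more than 1 list.

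Of 6 genes of coenzyme A synthesis, carriers and turnover, 3 were called higher in IF and 2 in FMD. Their medians were 0.59 and 0.51, beside 0.24 and 0.48 for all genes, of which 10.3% and 35.5% were called higher. The count and median in FMD thus do not set this list apart from all genes. Ppcs, an enzyme of coenzyme A synthesis, held 16.8 to 19.6 TPM in FED livers, 25.7 to 30.7 TPM under IF and 39.3 to 48.1 TPM under FMD (1.23 against FED, adjusted p = 7.82e-05), a step up in every library like that of Acot2, and was called in FMD vs IF too (0.69, adjusted p = 0.0193), though not without any 1 of the IF libraries or after scaling (adjusted p = 0.0717). Slc25a16, a mitochondrial carrier linked to coenzyme A, and Acbd5, a peroxisomal acyl-CoA binding protein, were called in IF (0.69 and 0.64), Acbd5 not without FED replicate 1. After scaling, 0 of 6 were called in IF by limma, with 2 at an unadjusted p under 0.05, and Ppcs alone was called in FMD vs FED (0.69).

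Genes that can supply Aldh3a2 with substrate were read next. Of 5 genes tested among sources of fatty aldehydes and omega-oxidation, 0 were called in IF vs FED by limma, with 2 at an unadjusted p under 0.05. In FMD vs FED, 1 was called, Adh7, an alcohol dehydrogenase, at 1.66 to 4.62 TPM against 0.87 to 1.59 TPM (0.84, adjusted p = 0.0110), and the call was lost after scaling and without FMD replicate 1. Sgpl1, sphingosine phosphate lyase, which releases a long-chain aldehyde, held 24.6 to 29.6 TPM in FED livers, 27.7 to 33.1 TPM under IF and 18.5 to 27.7 TPM under FMD, with log2 fold changes of 0.12 and -0.18 (adjusted p = 0.588 and 0.306). On scaled values it was called lower in FMD (-0.72, adjusted p = 0.00985). The Cyp4a and Cyp4f genes were not analysed here.

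**Figure D4:**
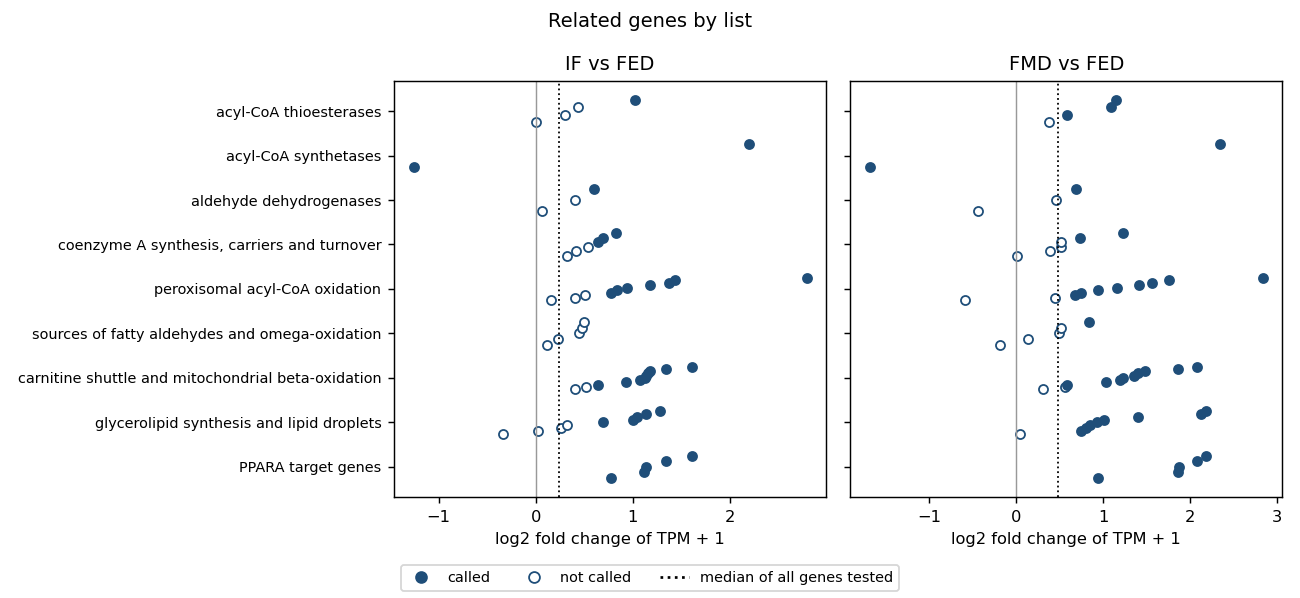
Log2 fold change of TPM + 1 for the related genes tested, by list, for each diet against FED, with filled points for called genes, open points for the others and a dotted line at the median of all genes (0.24 for IF and 0.48 for FMD). The peroxisomal, mitochondrial and PPARA lists lie mostly to the right of that line, and Acss2 is the single called gene to the left of 0.

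Over all lists, 51 of 188 genes were tested. Of these, 28 were called higher and 1 lower in IF vs FED, 34 and 1 for FMD against FED, and 5 and 1 for FMD against IF. After scaling the counts were 20 and 2, 18 and 4, and 0 and 0, the last by limma with 16 genes at an unadjusted p under 0.05. The median log2 fold change was 0.64, 0.84 and 0.10, beside 0.24, 0.48 and 0.24 for all genes. The comparisons against FED share the FED libraries.

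The genes whose pattern was most like each of the 3 were taken by Pearson's r of log2(TPM + 1) over the 9 libraries. For Acot2 they were Gde1, Purb, Tor1b, Marchf5 and Ubb, with r of 0.99 each, and Ubb, a polyubiquitin gene, stood at 490 ± 24.2, 782 ± 41.0 and 1184 ± 224 TPM in FED, IF and FMD livers (SD, n = 3). After scaling, Purb fell to an r of 0.48 and the others were at 0.96 to 0.98. For Acsl1 they were Plpp3, a lipid phosphate phosphatase, Crot, the peroxisomal carnitine octanoyltransferase, Acbd5, Rhobtb3 and Lamp2, a lysosomal membrane protein, with r of 0.97, 0.96, 0.94, 0.94 and 0.93. After scaling these were 0.93, 0.95, 0.91, 0.76 and 0.71, and without FMD replicate 1 Rhobtb3 and Lamp2 came 111th and 129th in the order. Plpp3 held 45.9 ± 6.72 TPM in FED livers, 92.7 ± 1.50 under IF and 61.3 ± 16.4 under FMD (SD, n = 3), highest in IF as Acsl1 was. For Aldh3a2 they were Zfand6, Eci2, Pex26, a peroxisome assembly factor, Cmtm4 and Kif1b, with r of 0.98 to 0.99. Eci2 was at 110 ± 24.7, 283 ± 8.84 and 324 ± 43.5 TPM (SD, n = 3). After scaling, Eci2 and Cmtm4 were at an r of 0.98 and 0.99, Pex26 at 0.93, Kif1b at 0.89 and Zfand6 at 0.86, which was then 169th in the order. These are the highest values among 4665 genes over libraries that share their groups, and they are given with no test.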

How the data were processed

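RNA-seq values of 9 mouse livers (3 FED, 3 IF, 3 FMD) were grouped by the labels. The values deposited are TPM. The authors captured mRNA with oligo-dT, kept the strand, sequenced on DNBSEQ and worked in Dr. Tom. The submitters' processing notes name mm39 and DESeq2, with no role stated, and the aligner and annotation are not given in the sources used here. TPM carries no read counts, so the depth, and with it the counting error, is unknown. Replicates are separate mice.

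A mean TPM of 1 or more was required (4665 of 5608 genes), and these were fitted as log2(TPM + 1) with limma 3.58.1 in R 4.3.3 (lmFit, eBayes with trend, 1 fit of all 9 libraries). Calls needed an adjusted p below 0.05 (Benjamini-Hochberg) with a log2 fold change beyond 0.585 in either direction. The fit was run on simulated normal values with known changes in IF vs FED only and the same spread in every group. It therefore does not test the FMD comparisons, where the spread was wider. The 3 genes and the lists were chosen with earlier results of these data known. Named were called members of the 3 enzyme families, up to 3 called genes with the smallest adjusted p from each other list, and the 5 genes most correlated with each of the 3. A gene that this rule names is not reported here. Pecr, Sgpl1 and Aldh4a1 were named after their values were seen. Promoter windows came from RefSeq (GRCm38.p6) and shared sequence from GENCODE M21 transcripts. Coordinates were not converted to mm39. Other steps ran in python 3.11.15 (pandas 2.3.3, numpy 2.4.6, matplotlib 3.10.9). The alternatives were another pseudocount, no filter, scaling, quantile normalization, separate fits, a replicate block, the thresholds and each library left out.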

Additional observations from a re-analysis of the deposited data

How the results depend on the processing

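No log2 fold change of Acot2, Acsl1 or Aldh3a2 against FED changed direction under the alternatives run. Aldh3a2 in FMD vs IF turned to -0.12 on scaled values and to -0.02 under quantile normalization. With a pseudocount of 0.1, Acot2 stood at 3.88 in IF and 5.76 in FMD against FED. Scaling gave 333 and 522 genes called for IF and FMD against FED and 101 for FMD against IF (553, 1732 and 240 without it), 22 and 0 related genes in both FMD comparisons (35 and 6), and 0.36 for Acsl1 and 1.48 for Aldh3a2 in FMD vs FED. Quantile normalization gave 326, 514 and 98 genes, 23 and 0 related genes, and 0.50 and 1.58.

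The FMD vs IF count was the least stable, with 24 genes and 0 related genes in separate fits, 3 related genes with no filter, and 19 and 0 at an adjusted p under 0.01, where IF vs FED had 364. At a log2 fold change over 1 the counts were 169, 397 and 52 genes and 19, 23 and 0 related genes. Leaving out 1 library gave 18 (without IF replicate 2) to 820 (without FMD replicate 4) genes and 0 to 11 related genes in FMD vs IF, 1166 to 2173 genes in FMD vs FED and 415 to 608 in IF vs FED. Acot2 then ranged from 4.34 to 5.12 in FMD vs FED and 1.39 to 2.17 in FMD vs IF, and Acsl1 from -0.84 to -0.33 in FMD vs IF. Scaling without FMD replicate 1, chosen after seeing the data, gave 4.06 and 1.24 for Acot2 in FMD against FED and IF, 0.80 for Acsl1 against FED, 0.20 for Aldh3a2 against IF, 520 and 86 genes, and 1 related gene in FMD vs IF.

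A replicate block gave 772 genes and 10 related genes in FMD vs IF. No source says that a number marks a shared mouse, litter or day. The correlations of same-numbered samples' deviations from their group means were 0.177, 0.0400 and 0.00348 for FED and IF (replicates 1 to 3), 0.109 and 0.00551 for FED and FMD, and 0.110 and 0.159 for IF and FMD (replicates 1 and 2). These were all positive. Values of differently numbered samples ran from -0.202 (FMD replicate 2 with IF replicate 3) to 0.211 (FMD replicate 4 with IF replicate 3). FED replicate 2 correlated more with IF replicate 3 (0.108) than with its own number. Not every pair was over 0.1, and FMD shares only 2 numbers with the other groups, so the samples were not treated as paired.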

Other observations

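Genes that store fatty acids or release them from lipid droplets were also read. Of 9 genes of glycerolipid synthesis and lipid droplets tested, 5 were called higher in IF and 8 in FMD against FED, with medians of 0.69 and 0.93 beside 0.24 and 0.48 for all genes. After scaling, 4 were higher and 1 lower in IF, and 3 were higher in FMD. Plin2, a lipid droplet coat protein, was at 234, 308 and 296 TPM in FED, 635, 545 and 654 TPM in IF and 2212, 1086 and 833 TPM in FMD replicates 1, 2 and 4, with no overlap between the groups (log2 fold change 1.13, adjusted p = 0.0181, and 2.18, adjusted p = 0.000329, against FED by limma). The IF call of Plin2 was lost without FED replicate 1 or any 1 of the IF libraries. FMD replicate 1 was the highest of its group for Plin2, as it was for Acot2. Pnpla2, the droplet triglyceride lipase, rose from 30.3 to 33.0 TPM to 67.8 to 87.1 TPM and 97.5 to 205 TPM (1.28 and 2.13, adjusted p = 0.00321 and 8.51e-05). Agpat3, an acyltransferase that uses acyl-CoA to build phosphatidic acid, rose from 61.0 to 64.6 TPM to 113 to 134 TPM and 137 to 192 TPM (1.01 and 1.40, adjusted p = 0.00102 and 6.45e-05). In FMD vs IF, 3 of the 9 were called higher and 0 after scaling by limma, where 4 were at an unadjusted p under 0.05. The comparisons against FED share the FED libraries.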
